A study of Mus musculus with 9 samples.

Results

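The gastrocnemius, a calf muscle, of mdx mice was compared with that of wild-type mice, gene by gene. The arrays were taken by genotype label alone, and no expression value was used in the choice: 2 mdx and 2 wild-type arrays of the 9 in the series, each from 1 mouse. The other 5 arrays came from mice carrying the human dystrophin gene (hDMD), lacking utrophin (utrn), or both. They entered the normalisation, the filter and the choice of the probe set that reads a gene. Of these only the 2 hDMD mdx arrays added to the estimate of spread, since the other genotypes had 1 mouse each. Levels of the hDMD mdx arrays are set beside the differences at the end. Elsewhere levels of the 5 arrays are given only where stated. Both wild-type mice were 7 weeks old, of the strain labelled C57Bl/DBA2/129OLA-Ev, wild-type 1 female and wild-type 2 male. Both mdx mice were male, mdx 1 aged 15 weeks and mdx 2 aged 13 weeks, and their labels give no strain. Genotype, age and any difference of strain therefore cannot be told apart in what follows, and wild-type 1 was the only female of the 4.

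Mdx mice carry a mutation in the gene of dystrophin, the large protein that ties the actin cytoskeleton of a muscle fibre to a glycoprotein complex in its membrane. Without it fibres are torn by contraction, die and are rebuilt from precursor cells, and a rebuilt fibre passes again through stages that a mouse otherwise passes through before and shortly after birth, with embryonic contractile proteins and acetylcholine receptors of the fetal type. Immune cells and matrix enter such muscle as well. The genes described here lie mostly outside those last groups: contractile, endplate, cytoskeletal, metabolic and regulatory genes, grouped in 48 lists.

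RNA was hybridised to Affymetrix U74Av2 arrays, on which a gene is read by 1 or more probe sets. Levels are on the log2 scale of normalised intensity plus 16, so that a probe set with no signal reads 4, a value called the floor below; differences are mdx minus wild-type on that scale and make the change of a dim gene look smaller than it was. The deposited intensities differed in overall brightness: the array medians of the 4 mice lay 6.70-fold apart, and spiked-in control RNA was 6.18-fold brighter on the bright than on the dim arrays of the series. Wild-type 1 and mdx 2 were bright and wild-type 2 and mdx 1 dim, so each genotype had 1 of each, and every difference could also be read within the bright pair and within the dim pair. The ratio of the 3' to the 5' probe set of actin, a sign of RNA integrity, was 1.20 in wild-type 1, 0.759 in wild-type 2, 1.87 in mdx 2 and 0.894 in mdx 1. The same ratio of Gapdh was 1.53, 0.951, 1.29 and 1.12 in that order, so the bright pair stood the other way round. Markers of skeletal muscle fibres (Ckm, Acta1, Myh4, Tnnt3, Atp2a1) were high on all 4 arrays, with summed intensities between 12574 and 13966. In whole muscle, fewer cells of a type and less RNA per cell cannot be told apart.

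The probe set of Dmd, the mutated gene, read 4.95 and 4.49 in wild-type 1 and 2 and 4.46 and 4.44 in mdx 2 and 1. These levels lay close to the floor on all 4 arrays. Utrn, whose product utrophin is the nearest relative of dystrophin, read 4.96 and 5.73 in wild-type 1 and 2 and 4.15 and 5.93 in mdx 2 and 1, and the genotypes overlapped.

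No probe set passed an adjusted p of 0.05 in limma: 0% of the 7453 probe sets kept were called with array brightness as a term, and 0% without it. The smallest adjusted p was 0.182 with the term and 0.342 without it. At an unadjusted p under 0.05 there were 427 probe sets with the term and 130 without it, where 373 would be drawn by chance alone. A single gene tested by exact permutation of 2 against 2 mice cannot go below a two-sided p of 0.333. The values below are therefore levels and differences, none of which passed the test, and they are read by how they stand in the bright and in the dim pair. A single array decided the count of calls: without wild-type 1, 69 probe sets passed, 14 higher and 55 lower in mdx, and 45 of these 69 had the opposite sign in the bright pair. Of the genes named below, Myl4, Chrna1, Pcx and Igf2 were among the 69, with limma adjusted p = 0.0326, 0.0332, 0.0332 and 0.0428, and under every other setting tried their adjusted p missed the threshold, reaching up to 1.0.

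Over the 5666 genes, each read by its brightest probe set, the differences of the 2 pairs were unrelated (Pearson r = 0.00, Spearman rho = 0.02, across genes, which are not independent replicates). The sign was the same in both pairs for 2805 genes, or 49.5%. Mdx was higher in both pairs for 1414 genes (25%) and lower in both for 1391 (24.5%). Both mdx arrays lay above both wild-type arrays in 645 genes (11.4%) and below both in 642 (11.3%). Unadjusted limma p-values under 0.05 were found for 191 genes higher (3.37%) and 152 lower (2.68%). These shares are the background against which each list is read. Far fewer genes differed in size as well: 23 genes were over 1 higher and 20 over 1 lower in both pairs.

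**Figure D1:**
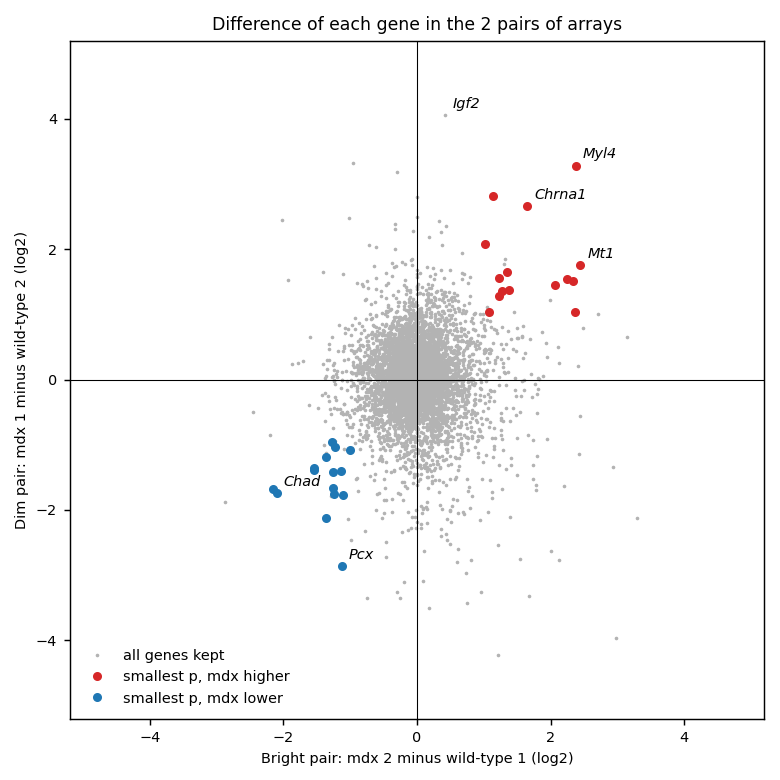
Each point is 1 of 5666 genes, with its difference in the bright pair (mdx 2 minus wild-type 1, log2) on the x axis and in the dim pair (mdx 1 minus wild-type 2, log2) on the y axis. Red and blue points are the 15 genes in each direction with the smallest limma p among those that differed by over 0.5 in both pairs without overlap, and the cloud as a whole has no slope (Pearson r = 0.00).

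The difference with the smallest p belonged to a contractile gene of immature muscle. Myl4 (Entrez gene 17896), the essential myosin light chain of embryonic muscle and of the atria, read 5.89 and 5.38 in wild-type 1 and 2 and 8.26 and 8.66 in mdx 2 and 1. Both mdx arrays stood far above both wild-type arrays, by 2.83 ± 0.31 (SE, n = 2 mice a genotype; limma adjusted p = 0.303). A second probe set of Myl4 gave a difference of 3.23, with the smallest adjusted p of all, 0.182. Tnnt2, the troponin T of heart and embryonic muscle, read 4.71 and 4.33 in the wild-type mice and 5.94 and 5.89 in mdx 2 and 1, a difference of 1.39 ± 0.29 (SE). Myh3, the embryonic myosin heavy chain, read 4.58 and 4 in the wild-type mice and 5.72 and 6.81 in mdx 2 and 1. Neither gene's genotypes overlapped, and Myh3 stood 1.14 higher in the bright pair and 2.81 higher in the dim pair. Wild-type 2 lay at the floor for Myh3, so its difference in the dim pair is only a bound. Myh8, the perinatal myosin heavy chain, came to 6.24 and 5.83 in wild-type 1 and 2 and to 6.61 and 7.14 in mdx 2 and 1, a smaller difference of 0.84. A second probe set of Myh8 gave 0.26, with -0.42 in the bright pair, and overlapped.

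In the list of embryonic and neonatal sarcomere genes 8 of the 9 on the array were kept, 6 of them were higher in mdx in both pairs and none lower, and 4 did not overlap. The median difference was 1.12, against 0.00 over all genes, with 0.41 in the bright and 1.43 in the dim pair. Actc1, the cardiac actin that immature muscle shares, overlapped: 10.63 and 10.46 in the wild-type mice, 10.35 and 10.92 in mdx 2 and 1. The adult programme stood apart from this. Among 13 fast fibre contractile genes 4 were higher and 2 lower in both pairs, with a median of 0.08, and Myh1, a fast myosin heavy chain, read 10.07 and 10.06 in the wild-type mice and 10.26 and 10.19 in mdx 2 and 1. Of the 11 slow fibre genes 6 were lower and 4 higher in mdx in both pairs, with medians of -0.38 in the bright and -0.23 in the dim pair. But only 1 gene lay below without overlap, and the 2 with an unadjusted limma p under 0.05 were both higher in mdx. Levels of the slow fibre list were low in 1 mouse of each genotype. Myh7, the slow myosin heavy chain, read 9.75 in wild-type 1 and 9.28 in mdx 2 but 6.60 in wild-type 2 and 5.34 in mdx 1. The other 5 arrays of the series, dim ones included, did not share that low level. The median over the list of each gene's level minus its mean over the 9 arrays was 0.82, -1.34, 0.66 and -1.28 in wild-type 1, wild-type 2, mdx 2 and mdx 1, and between -0.24 and 0.69 in the other 5.

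**Figure D2:**
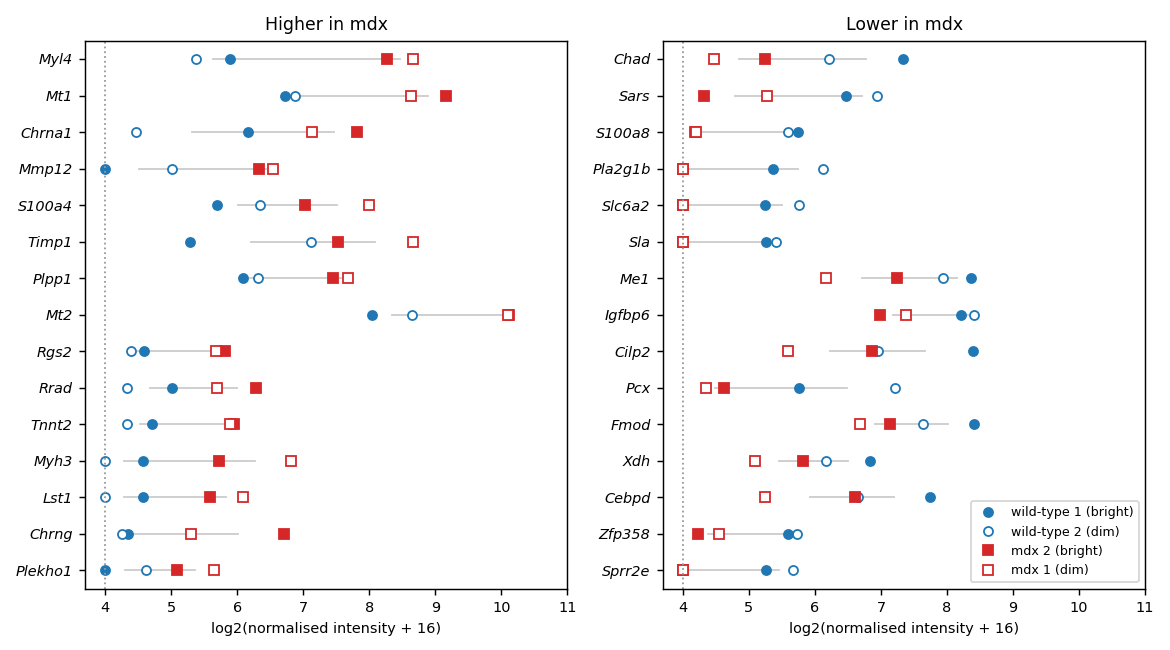
Levels, as log2 of normalised intensity plus 16, of the 15 genes in each direction with the smallest limma p among those that differed by over 0.5 in both pairs without overlap; circles are wild-type and squares mdx mice, filled for bright and open for dim arrays. Grey lines join the genotype means and the dotted line is the floor of 4; no gene passed the test, and 4 of the genes at right (Pla2g1b, Slc6a2, Sla, Sprr2e) lay at the floor in both mdx mice.

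Among genes of the endplate, where the motor nerve meets the fibre, those of 2 subunits of the acetylcholine receptor were higher in mdx in both pairs. The RNA came from whole muscle, so the place of these transcripts along the fibre was not read. Chrna1 (Entrez gene 11435) encodes the alpha subunit of the muscle acetylcholine receptor. It read 6.16 and 4.47 in wild-type 1 and 2 and 7.81 and 7.13 in mdx 2 and 1. Both mdx arrays lay above both wild-type arrays, by 2.15 ± 0.31 (SE; limma adjusted p = 0.427). Chrng (Entrez gene 11449), the gamma subunit that marks the fetal receptor and the receptor of fibres without a nerve, read 4.35 and 4.26 in the wild-type mice, near the floor, and 6.71 and 5.30 in mdx 2 and 1. The difference was 1.70 ± 0.36 (SE), and a second probe set of Chrng gave 0.83 and overlapped. Chrne, the epsilon subunit of the adult receptor, overlapped, with 6.25 and 5.43 in wild-type 1 and 2 and 6.15 and 5.66 in mdx 2 and 1. Ache, the acetylcholinesterase that clears the transmitter, read 5.61 and 4 in the wild-type mice and 5.93 and 6.44 in mdx 2 and 1. It differed little in the bright pair (0.32) and much in the dim pair (2.44), where wild-type 2 lay at the floor and the difference is only a bound. Rapsn, which anchors the receptor, differed by 0.27.

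The endplate list kept 11 genes, of which 7 were higher in mdx in both pairs and none lower, and 4 did not overlap. Its median difference was 0.13, with 0.03 in the bright and 0.46 in the dim pair, so that the size lay in a few members. The promoters of Chrna1 and Chrng are shown because both genes were higher together and are textbook targets of the myogenic factors, which bind E-boxes. The letters searched were CAGCTG and CAGGTG on both strands, and matches are in capitals. Each stretch runs 5′ to 3′ from 250 bases before to 30 after the gene's start, from RefSeq, build GRCm38.p6. Chrna1 lies on the minus strand at chr2:73580309-73580588, and Chrng on the plus strand at chr1:87205561-87205840.
Chrna1: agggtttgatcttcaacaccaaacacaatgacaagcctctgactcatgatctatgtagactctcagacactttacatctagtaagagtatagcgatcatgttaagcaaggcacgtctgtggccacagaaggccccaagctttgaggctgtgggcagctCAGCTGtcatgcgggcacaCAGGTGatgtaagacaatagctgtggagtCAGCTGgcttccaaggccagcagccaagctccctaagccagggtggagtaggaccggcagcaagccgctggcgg
Chrng: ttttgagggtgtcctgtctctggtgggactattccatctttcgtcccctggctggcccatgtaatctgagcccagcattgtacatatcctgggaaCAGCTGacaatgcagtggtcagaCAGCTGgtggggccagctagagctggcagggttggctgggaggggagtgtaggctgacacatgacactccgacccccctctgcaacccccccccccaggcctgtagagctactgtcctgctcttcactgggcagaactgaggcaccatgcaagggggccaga
Chrna1 held 3 matches, at -92, -73 and -44 from its start, and Chrng 2, at -155 and -132. Of the 32851 mouse promoters in RefSeq windows of 300 bases, 32.9% held at least 1 such E-box, 7.37% at least 2 and 1.39% at least 3. Myl4, the gene with the smallest p, held none in its window. A match describes letters only. Of the myogenic factors themselves, Myog (myogenin) differed in opposite directions, by 1.55 in the bright pair and by -0.25 in the dim pair. Myod1 read 6.34 and 6.20 in the wild-type mice and 6.40 and 6.87 in mdx 2 and 1, a difference of 0.36, and of the 22 kept genes of the myogenic list 6 were higher and 3 lower in both pairs, near the background.

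Both metallothionein genes were higher. Metallothioneins are small proteins that bind zinc and copper. Mt1 (Entrez gene 17748) read 6.72 and 6.88 in wild-type 1 and 2 and 9.16 and 8.64 in mdx 2 and 1, a difference of 2.10 ± 0.29 (SE; limma adjusted p = 0.409). Mt2 (Entrez gene 17750) read 8.04 and 8.65 in the wild-type mice and 10.11 and 10.10 in mdx 2 and 1, a difference of 1.76 ± 0.31 (SE; limma adjusted p = 0.529). The 2 wild-type mice lay close together in Mt1 and further apart in Mt2. Both mdx mice lay far above them in each gene, in the bright pair by 2.44 and 2.07 and in the dim pair by 1.75 and 1.45. Their promoters are shown because the genes lie next to each other in the genome and are known for copies of the metal response element, whose core was searched as TGCACNC and TGCGCNC on both strands, with matches in capitals. Both windows lie on the plus strand of GRCm38.p6 and are from RefSeq, again from 250 bases before to 30 after the start, Mt1 at chr8:94178839-94179118 and Mt2 at chr8:94172368-94172647.
Mt1: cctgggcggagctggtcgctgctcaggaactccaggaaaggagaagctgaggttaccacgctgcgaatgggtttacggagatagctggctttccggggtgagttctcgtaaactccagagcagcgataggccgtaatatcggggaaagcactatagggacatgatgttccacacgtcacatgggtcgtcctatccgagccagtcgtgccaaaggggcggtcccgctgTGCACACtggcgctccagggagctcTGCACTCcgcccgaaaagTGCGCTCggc
Mt2: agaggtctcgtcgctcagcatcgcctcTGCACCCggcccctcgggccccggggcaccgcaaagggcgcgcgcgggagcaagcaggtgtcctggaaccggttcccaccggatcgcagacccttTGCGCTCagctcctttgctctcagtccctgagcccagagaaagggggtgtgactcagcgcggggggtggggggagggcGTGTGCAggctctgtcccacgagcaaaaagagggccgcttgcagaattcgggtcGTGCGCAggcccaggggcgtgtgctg
Mt1 held 3 matches and Mt2 held 4. Of all promoters, 25.7% held at least 1 such core, 1.97% at least 3 and 0.517% at least 4. The rest of the redox list did not share the size of these differences: of 34 genes, metallothioneins included, 12 were higher and 6 lower in both pairs, with a median of 0.07. Prdx4, a peroxidase of the endoplasmic reticulum, read 4.95 and 5.14 in the wild-type mice and 5.48 and 5.99 in mdx 2 and 1. Gstt1, a glutathione transferase, went the other way, from 5.40 and 5.50 in the wild-type mice to 4.50 and 4 in mdx 2 and 1.

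Genes of the cytoskeleton differed in number rather than in size. Of 21 intermediate filament and microtubule genes, 15 were higher in mdx in both pairs against 25% of all genes, 2 were lower, and 8 lay above without overlap and none below. The median was 0.36, with 0.23 in the bright and 0.48 in the dim pair. Nes (Entrez gene 18008), nestin, an intermediate filament of precursor cells, young fibres and the endplate, read 6.63 and 6.09 in wild-type 1 and 2 and 7.40 and 7.57 in mdx 2 and 1, a difference of 1.12 ± 0.28 (SE). Vim, vimentin, a filament of connective tissue cells and of young fibres, read 4.54 and 4.66 in the wild-type mice and 4.94 and 5.68 in mdx 2 and 1. Des, desmin, the filament that ties adult myofibrils together, separated mainly in the dim pair, by 1.17 against 0.14 in the bright pair. Tubb2a, a beta tubulin, read 5.67 and 6.20 in the wild-type mice and 6.56 and 6.80 in mdx 2 and 1, but a second probe set of Tubb2a gave only 0.08. Connective tissue and immune cells express Vim too, and their part in this list was not tested.

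The 36 actin binding and motility genes had 15 higher in both pairs and 1 lower, with a median of 0.17 (0.37 in the bright, 0.06 in the dim pair). Tmsb10, a thymosin that holds actin monomers, read 7.03 and 8.21 in the wild-type mice and 9.02 and 9.44 in mdx 2 and 1, a difference of 1.61 ± 0.36 (SE). Gsn, gelsolin, which cuts actin filaments, was the exception: 9.44 and 10.16 in wild-type 1 and 2 against 8.97 and 8.31 in mdx 2 and 1, a difference of -1.16 ± 0.37 (SE). S100a4, a calcium-binding protein of motile cells, read 5.69 and 6.34 in the wild-type mice and 7.03 and 7.99 in mdx 2 and 1. It did not overlap, and stood 1.49 ± 0.24 (SE) higher.

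**Figure D3:**
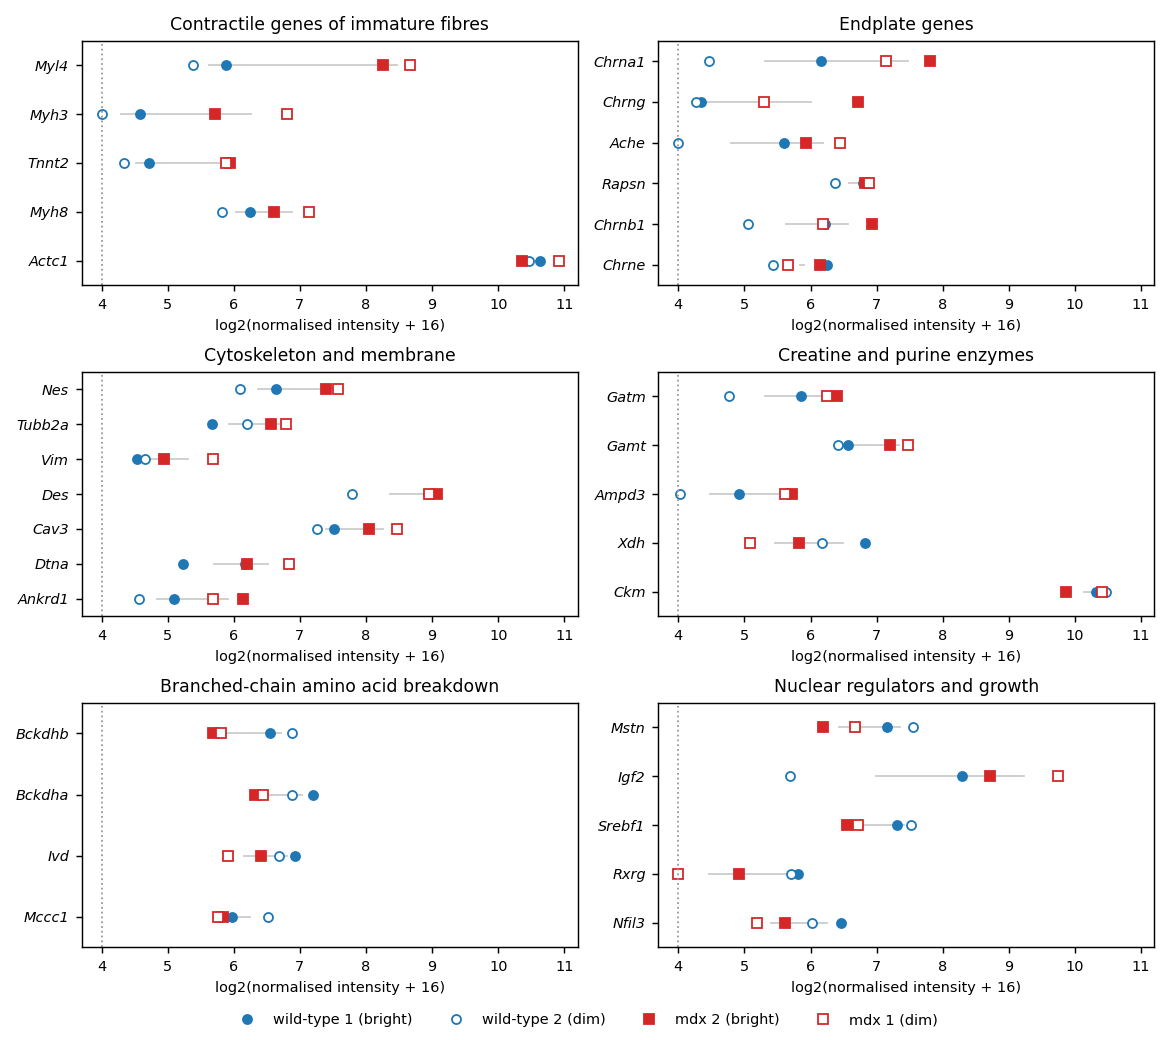
Levels, as log2 of normalised intensity plus 16, of named members of 6 gene groups; circles are wild-type and squares mdx mice, filled for bright and open for dim arrays, grey lines join the genotype means and the dotted line is the floor of 4. Mdx squares lie to the right of the circles for Myl4, Chrna1, Nes and Gamt and to the left for Bckdhb, Mstn and Srebf1, while Actc1, Chrne and Ckm overlap.

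At the fibre membrane the dystrophin complex list was near the background, with 6 of 17 genes higher and 3 lower in both pairs and a median of 0.05. Its largest separate difference was that of Cav3 (Entrez gene 12391), caveolin 3, the muscle form of the protein that shapes membrane pits. Cav3 read 7.52 and 7.26 in the wild-type mice and 8.05 and 8.47 in mdx 2 and 1, a difference of 0.87 ± 0.30 (SE), and a second probe set gave 0.85 and overlapped. Dtna, dystrobrevin alpha, which binds dystrophin, read 5.23 and 6.17 in the wild-type mice and 6.20 and 6.83 in mdx 2 and 1, though a second probe set gave 0.09. Among the calcium genes, Ryr3, the calcium release channel of immature muscle, read 4.78 and 4.09 in wild-type 1 and 2 and 5.45 and 5.62 in mdx 2 and 1. Cacng1, a subunit of the voltage sensor, differed by 0.60, and the 19 calcium genes as a list split evenly, 5 higher and 5 lower in both pairs.

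Several single regulators stood apart by almost the same amount in both pairs. Plpp1 (Entrez gene 19012), a membrane lipid phosphatase, read 6.08 and 6.31 in wild-type 1 and 2 and 7.45 and 7.68 in mdx 2 and 1, which is 1.37 higher in each pair. Ankrd1 (Entrez gene 107765), a titin-binding protein known to respond to stretch and injury, read 5.09 and 4.57 in the wild-type mice and 6.13 and 5.69 in mdx 2 and 1, a difference of 1.08 ± 0.25 (SE). Both mdx arrays lay above both wild-type arrays in each of these genes. Rrad (Entrez gene 56437), a small GTPase that binds calcium channels, was higher by 1.27 in the bright and 1.37 in the dim pair. Rgs2 (Entrez gene 19735), which shortens signalling by G proteins, was higher by 1.23 and 1.28, and Plekho1 (Entrez gene 67220), an adaptor protein, by 1.08 and 1.04. Wild-type 1 and 2 read 5.01 and 4.33 for Rrad and 4.59 and 4.39 for Rgs2. For Plekho1 they read 4, the floor, and 4.61, so its difference in the bright pair is only a bound. Csrp3, the muscle LIM protein, which also responds to stretch, did not join them: its difference was 1.39 in the bright pair and -0.63 in the dim pair.

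In energy metabolism the named members lay in both directions. Both enzymes of creatine synthesis were higher in mdx. Gatm (Entrez gene 67092), which makes guanidinoacetate, read 5.86 and 4.76 in wild-type 1 and 2 and 6.40 and 6.24 in mdx 2 and 1, and Gamt (Entrez gene 14431), which methylates it to creatine, read 6.57 and 6.42 against 7.20 and 7.47. Their differences were 1.01 ± 0.32 and 0.84 ± 0.27 (SE), and a second probe set of Gamt gave 1.17. Ckm, the creatine kinase of muscle, overlapped, with 10.32 and 10.47 in the wild-type mice and 9.87 and 10.40 in mdx 2 and 1. Of the purine enzymes, Ampd3 (Entrez gene 11717), an AMP deaminase outside the muscle-specific form, read 4.92 and 4.03 in the wild-type mice and 5.72 and 5.61 in mdx 2 and 1. Xdh (Entrez gene 22436), xanthine dehydrogenase, at the end of the same pathway, differed by -1.01 in the bright and -1.08 in the dim pair. The list as a whole had 5 of 19 genes higher and 6 lower in both pairs.

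The amino acid list had 9 of 19 genes lower and 3 higher in both pairs, with a median of -0.13. Its named members, the 4 with the largest differences without overlap, all act in the breakdown of branched-chain amino acids, and none passed the test (limma adjusted p from 0.806 to 0.905). Bckdhb (Entrez gene 12040) and Bckdha encode both chains of the first part of the branched-chain ketoacid dehydrogenase. Bckdhb read 6.55 and 6.88 in wild-type 1 and 2 and 5.69 and 5.81 in mdx 2 and 1, a difference of -0.97 ± 0.24 (SE). Bckdha read 7.19 and 6.87 in the wild-type mice and 6.32 and 6.45 in mdx 2 and 1. Further down the pathway, Ivd, the isovaleryl dehydrogenase of leucine breakdown, differed by -0.64 and Mccc1, a subunit of its carboxylase, by -0.44, without overlap in either. Oat, ornithine aminotransferase, from the list of polyamine genes, read 8.18 and 7.97 in the wild-type mice and 7.52 and 7.41 in mdx 2 and 1.

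Malic enzyme and pyruvate carboxylase, which link pyruvate to the citric acid cycle, were lower too. Me1 (Entrez gene 17436) read 8.36 and 7.94 in wild-type 1 and 2 and 7.24 and 6.17 in mdx 2 and 1, a difference of -1.44 ± 0.27 (SE; limma adjusted p = 0.638). Pcx (Entrez gene 18563) read 5.75 and 7.21 in the wild-type mice and 4.62 and 4.35 in mdx 2 and 1. The genotypes did not overlap in either gene, but a second probe set of Pcx gave 0.18, the opposite sign. Fat cells express both genes, as well as Fasn, fatty acid synthase, which read 8.32 and 10.30 in the wild-type mice and 7.85 and 7.81 in mdx 2 and 1. The summed intensity of the fat cell markers Adipoq, Fabp4 and Retn was 229.5 in wild-type 1, 1982 in wild-type 2, 743 in mdx 2 and 313 in mdx 1. Wild-type 2 was highest, and the part of fat cells in these differences was not tested.

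Among lipid regulators, Srebf1, which turns on lipid synthesis, read 7.31 and 7.52 in wild-type 1 and 2 and 6.55 and 6.71 in mdx 2 and 1, a difference of -0.79 ± 0.23 (SE). Rxrg, the retinoid X receptor gamma of muscle, read 5.81 and 5.71 in the wild-type mice and 4.92 and 4 in mdx 2 and 1. Rxra was also lower without overlap, with differences of -0.48 and -1.08 in the bright and dim pair, but a second probe set gave -0.16 and overlapped. The remaining receptor, Rxrb, named after its values were seen, differed by -0.70 and -0.95 in the pairs, though its genotypes overlapped because wild-type 2 read only 4.95. The nuclear receptor list had 7 of 24 genes lower and 2 higher in both pairs, with a median of -0.09.

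Fatty acid oxidation genes were lower in both pairs in 14 of 28 cases and higher in 3, with medians of -0.13 in the bright and -0.41 in the dim pair. Echs1, the enoyl-CoA hydratase, read 7.58 and 7.87 in the wild-type mice and 6.75 and 7.31 in mdx 2 and 1. The genes that switch a muscle from glucose to fat in fasting went in opposite directions: Pdk4, the kinase that shuts pyruvate dehydrogenase, differed by 1.77 in the bright pair and by -1.62 in the dim pair, and Ucp3, a mitochondrial carrier, by 0.99 and -1.27. The 50 oxidative phosphorylation genes had 18 higher and 7 lower in both pairs, with a median of -0.02 in the bright and 0.33 in the dim pair. The 22 genes of the citric acid cycle and pyruvate entry had 3 higher and 8 lower. Of 25 glycolysis and glycogen genes 4 were higher and 9 lower, among the latter Phka1, a subunit of phosphorylase kinase in muscle, with 7.49 and 7.54 in the wild-type mice and 6.89 and 6.85 in mdx 2 and 1. Mb, myoglobin, the oxygen store of muscle, read 9.87 and 9.67 in the wild-type mice and 9.09 and 9.28 in mdx 2 and 1.

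**Figure D4:**
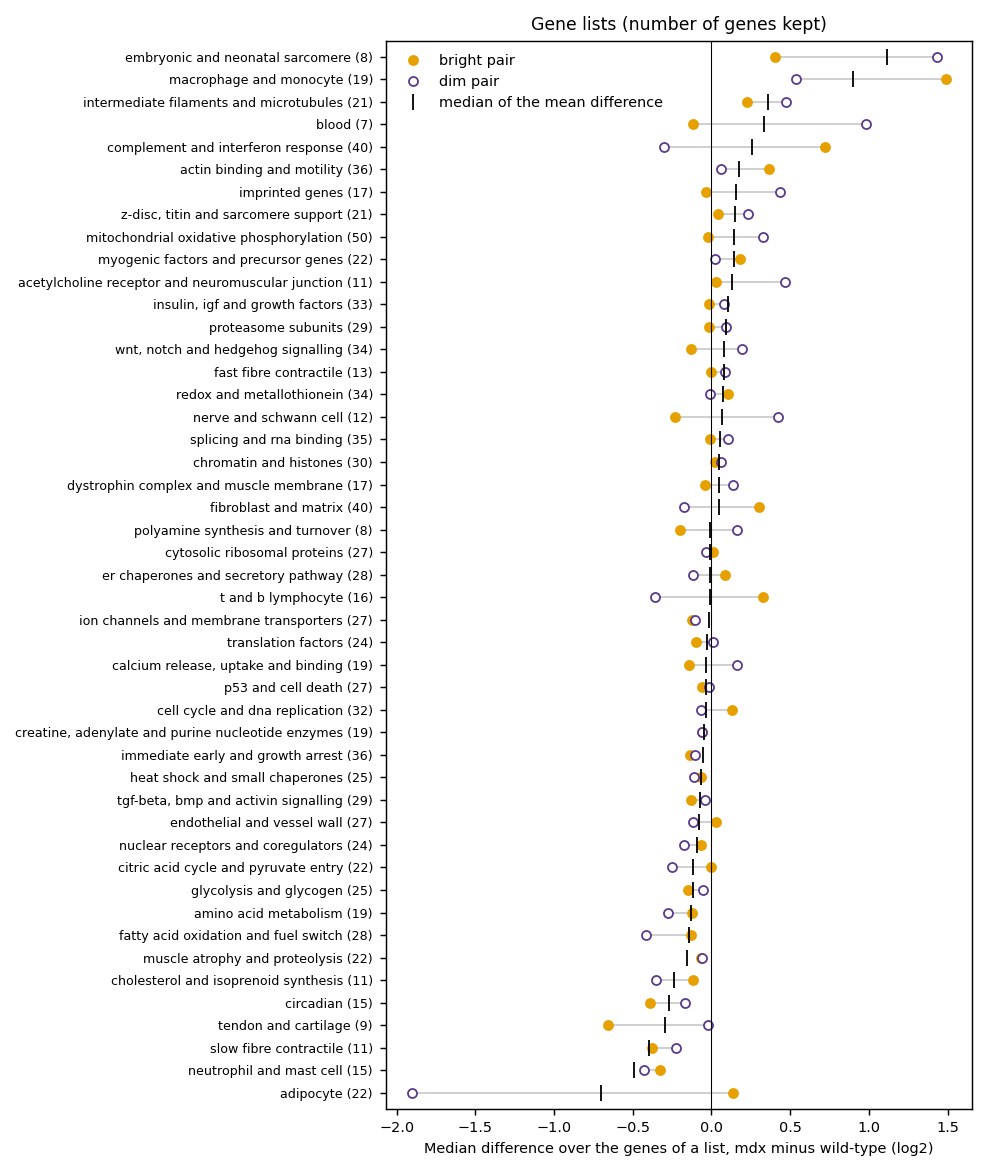
Median difference, mdx minus wild-type (log2), over the kept genes of each of the 47 lists with at least 5 genes; filled points are the bright pair, open points the dim pair, and ticks the median of the mean difference. Embryonic sarcomere, macrophage and cytoskeletal filament genes exceed 0.2 in both pairs, slow fibre and neutrophil genes lie under -0.2 in both, and 22 lists have medians of opposite sign.

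Among growth regulators, Mstn (Entrez gene 17700), myostatin, the factor that limits muscle mass, read 7.16 and 7.54 in wild-type 1 and 2 and 6.19 and 6.67 in mdx 2 and 1. Both mdx arrays lay below both wild-type arrays, with a difference of -0.92 ± 0.23 (SE; limma adjusted p = 0.806). Smad7, an inhibitor inside the same pathway family, read 5.77 and 4.68 in the wild-type mice and 4.47 and 4.16 in mdx 2 and 1. Ltbp4, which holds latent TGF-beta in the matrix, differed by -0.69, and the TGF-beta list of 29 genes had 11 lower and 6 higher in both pairs.

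Igf2, an imprinted growth factor of the fetus, had a mean difference of 2.24, but almost all of it lay in the dim pair. Igf2 read 8.30 in wild-type 1, 5.69 in wild-type 2, 8.72 in mdx 2 and 9.75 in mdx 1. Wild-type 2 stood apart among these arrays, but not over the series. Igf2 read 6.88 in hDMD 1, 6.17 and 5.76 in hDMD mdx 1 and 2, and 4 in hDMD mdx utrn-/- 1. In mdx utrn-/- 1 it read 10.73. Peg3, an imprinted zinc finger gene, differed in both pairs, with 5.66 and 5.03 in the wild-type mice and 6.81 and 5.81 in mdx 2 and 1, and Mest, also imprinted, read 4.32 and 4.25 against 5.04 and 4.73. As a list, however, 3 of 17 imprinted genes were higher and 2 lower in both pairs. Of the binding proteins of the insulin-like growth factors, Igfbp6 (Entrez gene 16012) read 8.22 and 8.41 in the wild-type mice and 6.98 and 7.38 in mdx 2 and 1, and Igfbp3 read 6.18 and 5.63 against 4.92 and 4.89. A second probe set of Igfbp3 gave -0.65 and overlapped, and the other 4 Igfbp genes kept (Igfbp1, Igfbp2, Igfbp4 and Igfbp7) overlapped as well.

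Of the genes that turn over protein, Ube2b, a ubiquitin-conjugating enzyme, read 8.96 and 8.26 in wild-type 1 and 2 and 7.92 and 7.77 in mdx 2 and 1. Bnip3, which directs mitochondria to autophagy, read 7.09 and 7.12 in the wild-type mice and 6.33 and 6.24 in mdx 2 and 1. Map1lc3a, a coat protein of the autophagosome, stood the other way, at 8.05 and 7.41 against 8.42 and 8.63. The atrophy list had 8 of 22 genes lower and 4 higher in both pairs. Housekeeping lists stayed near zero: the medians were -0.01 over 27 ribosomal protein genes, 0.09 over 29 proteasome genes and -0.03 over 24 translation factors. Cell cycle genes split, with 11 of 32 higher and 9 lower in both pairs, Ccnd1, cyclin D1, reading 5.16 and 4.77 in the wild-type mice and 5.75 and 5.51 in mdx 2 and 1. A second probe set of Ccnd1 gave -0.03 and overlapped. The circadian list had 7 of 15 genes lower and 1 higher, with medians of -0.39 in the bright and -0.17 in the dim pair, and Nfil3, a repressor of clock output genes, read 6.47 and 6.02 against 5.62 and 5.19, while a second probe set of Nfil3 gave -0.04 and overlapped. Cebpd (Entrez gene 12609), a transcription factor of the acute phase response and of fat cell formation, read 7.74 and 6.66 in the wild-type mice and 6.61 and 5.25 in mdx 2 and 1.

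Of the genes lower in mdx, that with the smallest p was Chad (Entrez gene 12643), chondroadherin, a protein of cartilage and tendon. Chad read 7.34 and 6.22 in wild-type 1 and 2 and 5.23 and 4.47 in mdx 2 and 1, a difference of -1.93 ± 0.24 (SE; limma adjusted p = 0.409). Fmod, fibromodulin, which spaces the collagen fibrils of tendon, read 8.41 and 7.63 in the wild-type mice and 7.13 and 6.68 in mdx 2 and 1, and Cilp2 (Entrez gene 68709), a cartilage matrix protein, read 8.40 and 6.95 against 6.86 and 5.58. None of the 3 overlapped. The summed intensity of Chad and Fmod was 469 and 240 in wild-type 1 and 2 and 146 and 92.5 in mdx 2 and 1. Both genes were picked for a small p and a lower level in mdx, so their sum adds nothing about tendon. Of 9 tendon and cartilage genes 5 were lower and 2 higher in both pairs, 3 lay below without overlap and 1 above. The list medians were -0.66 in the bright and -0.02 in the dim pair. The part of tendon tissue in these differences was not tested.

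Sars (Entrez gene 20226), the seryl-tRNA synthetase of the cytosol, read 6.47 and 6.94 in wild-type 1 and 2 and 4.31 and 5.27 in mdx 2 and 1, differences of -2.16 and -1.67 in the pairs. The remaining genes at the top of this direction were dim. Zfp358, a zinc finger gene, read 5.60 and 5.73 in the wild-type mice and 4.23 and 4.54 in mdx 2 and 1. Both mdx arrays lay at the floor of 4 for Slc6a2, the noradrenaline transporter (5.25 and 5.75 in the wild-type mice), for Sla, an adaptor of lymphocyte receptors (5.25 and 5.41), for Pla2g1b, a secreted phospholipase (5.36 and 6.12), and for Sprr2e, a cornified envelope protein (5.25 and 5.67). No fold is given for these 4, since 1 side has no measured signal. Th, tyrosine hydroxylase, which with Slc6a2 marks sympathetic nerve fibres, did not follow it, with 5.01 and 4.64 in the wild-type mice and 5.09 and 5.05 in mdx 2 and 1.

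**Figure D5:**
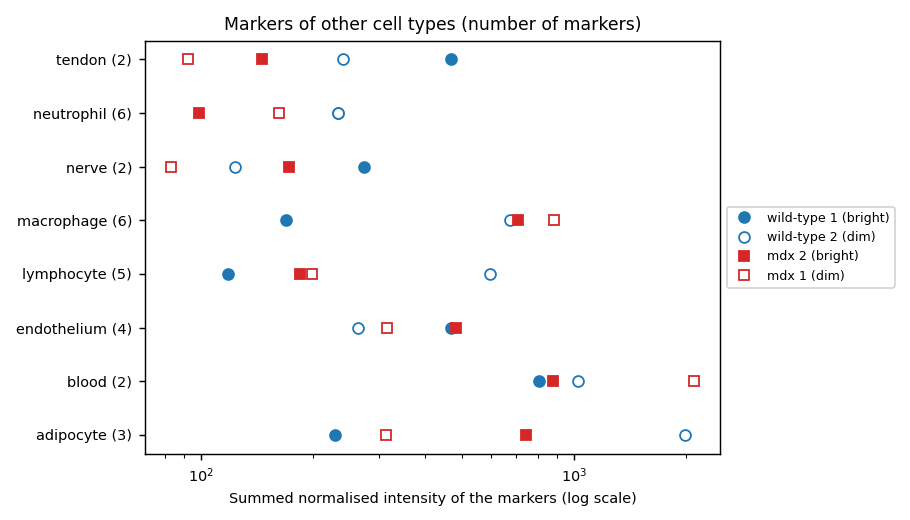
Summed normalised intensity (log scale) of the markers of 8 cell types other than muscle fibres, with the number of markers in brackets; circles are wild-type and squares mdx mice, filled for bright and open for dim arrays. Wild-type 2 has the highest fat cell and lymphocyte sums, both mdx arrays lie above both wild-type arrays in the macrophage sum and below both in the neutrophil and tendon sums. The tendon markers, Chad and Fmod, were also picked for a small p and a lower level in mdx. S100a8, a neutrophil marker, was picked in the same way. Of the macrophage markers Cd68, Csf1r and Cd14 overlapped between genotypes, and of the neutrophil markers Ngp and Lcn2.

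Other cell types varied between the mice of one genotype as well as between genotypes. The summed intensity of 6 macrophage markers was 169 in wild-type 1, 674 in wild-type 2, 707 in mdx 2 and 882 in mdx 1, so the wild-type mice differed from each other more than wild-type 2 did from either mdx mouse. Of these markers Cd68, Csf1r and Cd14 overlapped between genotypes. In the dim pair Csf1r read 7.81 in wild-type 2 and 7.79 in mdx 1, and Cd14 7.15 and 6.56. The macrophage list had 13 of 19 genes higher in both pairs and none lower, with medians of 1.49 in the bright and 0.54 in the dim pair. Genes that macrophages express in damaged tissue stood among the 15 with the smallest p: Mmp12 (Entrez gene 17381), the macrophage elastase, read 4 and 5.01 in the wild-type mice and 6.34 and 6.54 in mdx 2 and 1, and Lst1, a leukocyte transcript, 4.57 and 4 against 5.58 and 6.08. A second probe set of Mmp12 gave 1.10 and overlapped. Timp1, an inhibitor of matrix proteases, read 5.29 and 7.11 in the wild-type mice and 7.53 and 8.66 in mdx 2 and 1. Neutrophil and mast cell genes lay the other way, 8 of 15 lower in both pairs and 1 higher. S100a8 (Entrez gene 20201), a subunit of calprotectin, read 5.74 and 5.59 in wild-type 1 and 2 and 4.19 and 4.20 in mdx 2 and 1, and its partner S100a9 read 5.29 and 4.89 against 4.05 and 4.46. A low level of S100a8 was not particular to mdx. It read 4, the floor, in hDMD 1 and in hDMD mdx utrn-/- 1, and 9.08 in mdx utrn-/- 1. The 6 neutrophil markers summed to 232 and 233 in the wild-type mice and to 98.7 and 162 in mdx 2 and 1. S100a8 is in this sum and was also picked for a small p and a lower level in mdx. Of the other markers, Ngp and Lcn2 overlapped between genotypes. In the dim pair Ngp read 6.23 in wild-type 2 and 6.40 in mdx 1, and Lcn2 4.94 and 5.00. The T cell marker Cd3e lay at the floor on all 4 arrays, and the macrophage and neutrophil integrin Itgam between 4 and 4.60. The part of these cells in the differences of other genes was not tested.

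The mdx mice that also carried hDMD, the human dystrophin gene, aged 24 (mouse 1) and 10 weeks (mouse 2), were set beside these differences. Their arrays share no sample with the comparison, though they were normalised with it and entered its spread. Of the 123 genes higher in mdx by over 0.5 in both pairs without overlap, both hDMD mdx arrays lay nearer the wild-type than the mdx mean in 71 and nearer mdx in 13, with 39 split. Of the 116 such genes lower in mdx, the numbers were 48, 18 and 50. Over all 5666 genes, with no choice by size, both hDMD mdx arrays lay nearer the wild-type mean in 26.5% and nearer the mdx mean in 18.3%. Among the 2839 of these with a higher mdx mean the shares were 24.7% and 21.1%, against 57.7% and 10.6% of the 123. Among the 2827 with a lower mdx mean they were 28.4% and 15.6%, against 41.4% and 15.5% of the 116. For the lower genes the share nearer mdx was thus that of the background. For example, levels near the wild-type ones were read for Myl4 (5.82 and 6.21 in hDMD mdx 1 and 2), Chrna1 (5.69 and 4.77), Mt1 (6.39 and 6.64), Ankrd1 (4.31 and 4.27) and Mstn (7.73 and 8.28). Levels nearer mdx were read for S100a8 (4.27 and 4.04), Slc6a2 (4.26 and 4.24) and Igfbp6 (7.18 and 7.49). The shares of the chosen genes and of all genes are not like for like. The chosen genes were picked for large differences and passed a filter on a mean that includes the mdx and wild-type arrays. Where 1 genotype lies near the floor, any other array near the floor counts as nearer to it. Lst1 (4.41 and 4 in hDMD mdx 1 and 2) and Chrng (4.48 and 4.08) are of this kind. Age and genotype differ together between these mice, no test was run on these counts, and no conclusion is drawn from them.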

How the data were processed

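The authors deposited 1 table of probe set intensities on a linear scale, some below 0; per the labels' protocols, biotin-labelled cRNA was hybridised to U74Av2 arrays, while the sources used here name neither the expression measure nor any scaling. The intensities of 12422 probe sets that are not controls were quantile normalised over 9 arrays, values below 0 set to 0, 16 added and log2 taken. The filter, a mean above the 40th percentile, passed 7453 probe sets. Of the kept values on the 4 arrays, 2.82% lay at the floor. Symbols were updated through Entrez identifiers for 10817 of 10833 probe sets with 1 symbol; 396 carried several and 1193 none, and those stay unnamed. A gene is read by its brightest probe set.

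limma 3.58.1 in R 4.3.3 was fitted with 1 mean per genotype over 9 arrays plus brightness, judged from the spike-in controls, as an additive term (2 residual degrees of freedom); tests were two-sided with Benjamini-Hochberg adjustment. SEs are from that fit. With simulated data 28 of 100 genes changed by 1 and 99 of 100 changed by 3 (log2) were called. Without the brightness term the numbers were 0 and 77. All these genes were changed together, with normally distributed noise at the fitted spread, a setting that differs from the data. In the data a difference of 3.23 (a probe set of Myl4) had a limma adjusted p of 0.182. The simulated shares therefore do not say which sizes the data could call. The genes named were those with the 15 smallest p-values in each direction among genes over 0.5 apart in both pairs without overlap, in each list up to 4 members with the largest differences among those without overlap (or the 1 largest where there was none), and a set of genes known in dystrophic muscle; not all are printed, and Actc1, Chrne, Myh7, Rxrb and the cell type markers were named outside this rule. Members, lists and rules were chosen with earlier results of these data known. The labels say that samples came from individual mice and carry no replicate number, so the numbers here only name arrays.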

Additional observations from a re-analysis of the deposited data

How the results depend on the processing

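No paired test of mice was run, since the arrays came from individual mice and the labels name no pairing between them. The bright and dim pairs rest on array brightness alone. The count of 0 called probe sets was the same under every other setting tried (no brightness term, 4 arrays only, no normalisation, 75th percentile scaling, pseudocounts of 1 and 64, no filter, a trend in the variance) and without wild-type 2, either mdx mouse or either hDMD mdx mouse. The other 3 mice were not left out. Leaving out 1 of those mice or wild-type 1 gave 0 to 69 called probe sets, the 69 without wild-type 1, where 1 residual degree of freedom remained. The 836 probe sets with both mdx arrays above both wild-type arrays became 140 on deposited intensities without normalisation and 1315 without the filter, when 12422 were counted; the other direction, 800 probe sets, became 128 and 1213. For the 88 genes named, 699 of 700 values under other settings kept their direction, the exception being Ucp3 at 0.067 on deposited intensities, and so did 515 of 528 values with 1 mouse left out. The exceptions, with their lowest and highest such values, were Csrp3 (-0.69 to 1.44), Myog (-0.096 to 1.40), Pdk4 (-1.30 to 1.46), Ucp3 (-1.35 to 1.07), Utrn (-0.83 to 0.21), Actc1 (-0.35 to 0.54), Chrne (-0.11 to 0.24) and Myh7 (-1.76 to 0.028). Their causes were not tested. Depth is not a limit that arrays report; their number, 2 mice a genotype, limits the precision, and dim probe sets near the floor show bounds.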
